A study of Mus musculus with 8 samples.

Results

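Immediate early genes are the transcripts that cells make within minutes of a stimulus, before any new protein is needed. The 10 genes described here are Fos, Fosb, Fosl2, Jun, Junb, Egr1, Atf3, Ier2, Nr4a1 and Dusp1, and they were taken by name: a gene's values are those of a probe set of the array whose single annotated symbol is that gene. Of the 10, 9 had such a probe set, and all 9 passed the filter on level, so they stand among 16232 tested genes. Junb shares its probe set with Prdx2, so it has no value of its own here. The RNA is that of thoracic aortic endothelium from 8 female mice, 4 with induced deletion of Mef2c (EKO) and 4 littermate controls. All 8 carried the inducible recombinase Cdh5-CreERT2 and floxed Mef2c (Mef2c f/f). The EKO mice received 5 daily injections of tamoxifen at 10 weeks of age, and the control mice received the vehicle, sunflower seed oil with 10% ethanol. The tissue was collected 14 days after injections began, by rinsing the lumen of the vessel with TRIzol, and each array (Affymetrix Mouse Transcriptome Array 1.0) holds RNA of 1 aorta. The recombinase is driven by the promoter of the endothelial cadherin gene. Tamoxifen went to the EKO mice alone, so the drug and the deletion cannot be told apart.

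FOS and JUN proteins are leucine zipper (bZIP) factors that pair with each other to form AP-1, while EGR1 is a zinc finger factor and NR4A1 an orphan nuclear receptor. Their genes stand ready in resting cells and are switched on through serum response factor and CREB, which bind the CArG box and the cAMP response element (CRE) of their promoters and are activated by MAP kinases, calcium and cAMP. In vessels, shear stress, stretch, injury and the handling of tissue are known stimuli. MEF2 proteins, the family of the deleted factor, are known to bind the Jun and Nr4a1 promoters in other cell types. The study asked which endothelial transcripts differ after loss of Mef2c.

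The promoters show which of these elements lie next to the start sites. Windows of 250 bases before the annotated start, from RefSeq (GRCm38.p6), were used for 8 of the 10 genes, all but Egr1 and Ier2. Of these, 5 are printed 5′ to 3′, each with elements that are described below. On the minus strand are Jun (chr4:95052223-95052472), Atf3 (chr1:191183334-191183583) and Dusp1 (chr17:26508473-26508722). On the plus strand are Nr4a1 (chr15:101266596-101266845) and Fos (chr12:85473640-85473889). Capitals mark matches to the MEF2 consensus, to the CRE core TGACG (or CGTCA on the other strand), and to TGACATCA, an ATF and AP-1 type site of the Jun promoter.
Jun: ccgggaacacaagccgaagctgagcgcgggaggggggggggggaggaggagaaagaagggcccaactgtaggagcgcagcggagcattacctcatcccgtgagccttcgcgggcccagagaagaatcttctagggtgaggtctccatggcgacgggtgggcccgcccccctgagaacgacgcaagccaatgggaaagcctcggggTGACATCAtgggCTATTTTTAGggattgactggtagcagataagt
Atf3: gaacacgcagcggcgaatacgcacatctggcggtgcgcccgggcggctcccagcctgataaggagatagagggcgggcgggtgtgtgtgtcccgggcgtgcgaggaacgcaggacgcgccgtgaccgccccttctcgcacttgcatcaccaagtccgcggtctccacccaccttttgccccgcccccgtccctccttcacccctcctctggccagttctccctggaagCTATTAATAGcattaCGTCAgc
Dusp1: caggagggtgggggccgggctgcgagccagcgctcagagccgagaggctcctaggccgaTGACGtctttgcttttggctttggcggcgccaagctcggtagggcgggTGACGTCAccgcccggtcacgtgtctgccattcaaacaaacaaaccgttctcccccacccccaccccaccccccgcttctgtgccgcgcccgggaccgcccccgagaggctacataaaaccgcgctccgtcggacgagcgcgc
Nr4a1: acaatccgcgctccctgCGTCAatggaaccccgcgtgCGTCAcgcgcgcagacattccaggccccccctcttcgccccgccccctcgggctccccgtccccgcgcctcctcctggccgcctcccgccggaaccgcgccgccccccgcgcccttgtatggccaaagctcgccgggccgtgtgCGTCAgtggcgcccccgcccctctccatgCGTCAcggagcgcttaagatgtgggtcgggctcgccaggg
Fos: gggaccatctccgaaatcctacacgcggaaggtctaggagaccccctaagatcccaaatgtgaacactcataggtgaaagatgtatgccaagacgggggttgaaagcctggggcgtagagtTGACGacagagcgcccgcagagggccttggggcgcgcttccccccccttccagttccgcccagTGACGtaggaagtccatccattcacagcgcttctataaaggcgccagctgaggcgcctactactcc

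The CRE core was present, on either strand, in 6 of the 8 windows, and 17.8% of all 32851 promoter windows of the same length hold it. Nr4a1 had 4 copies, at -233, -213, -69 and -40 (first base, counted from the start), and Fos had 2, at -129 and -66. Fosb had 1 core at -60, Junb 1 at -106 and Atf3 1 at -7. Dusp1 had the whole CRE, TGACGTCA, at -143, with which 2 of its 3 cores overlap, and the whole element is in 1.55% of all windows. A match to the MEF2 consensus stood in Jun at -33 and in Atf3 at -22, against 2.92% of all windows, and in none of the other 6. The site TGACATCA, searched for after the Jun window had been read, was in Jun at -45 and in 2.93% of all windows. No window of the 8 held the AP-1 letters TGANTCA (6.75% of all windows) or a CArG box (1.47%), and Fosl2 held none of the elements drawn. The letters of the TATA box, TATAAA, were in Fos alone, at -33, and in 12.4% of all windows. These matches are letters in a window, not measured binding. A window without a match does not show that the gene lacks the element, which holds for the CArG box and the MEF2 consensus alike. Bases farther from the start were not searched, and sites that differ from the searched letters were not counted. Egr1 and Ier2 had no window and were not searched at all.

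**Figure D1:**
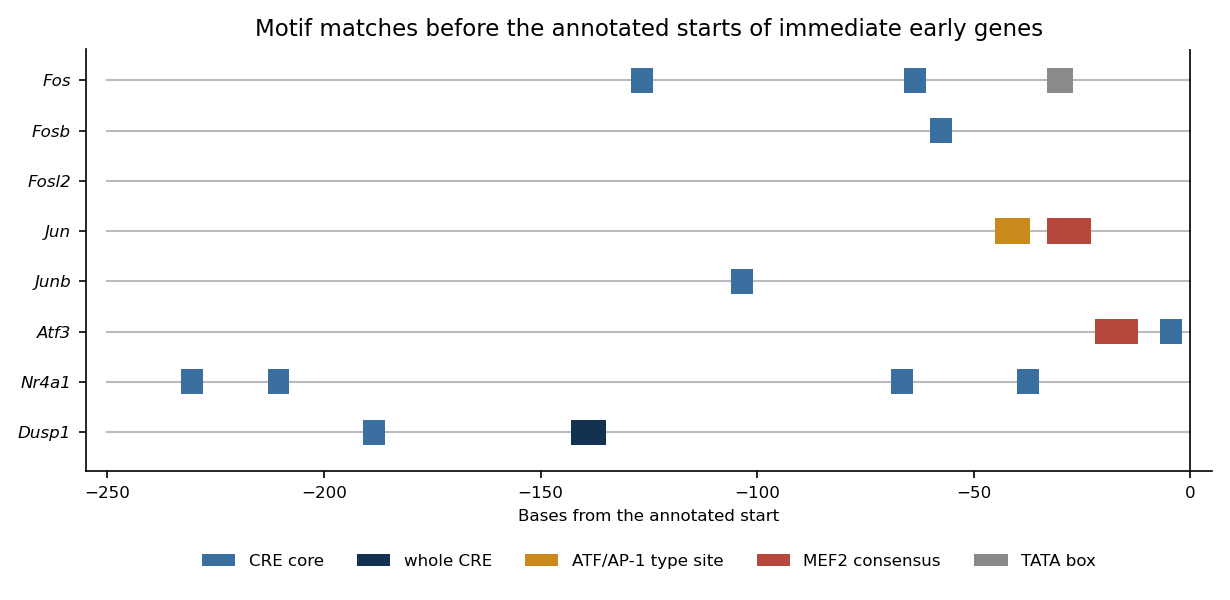
Motif matches in the 250 bases before the annotated starts of 8 immediate early genes. The x axis is the distance in bases from the start and each coloured bar is a match, on either strand, to the CRE core, the whole CRE, the ATF and AP-1 type site, the MEF2 consensus or the TATA box. The core is in 6 of the 8 windows, and the MEF2 consensus is in Jun and Atf3.

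The arrays resembled each other closely: array medians of the tested genes ran from 8.43 to 8.53 on the log2 scale of the deposited values, and pairwise r between arrays ran from 0.981 to 0.993 across genes, which are not independent replicates. Endothelial markers averaged 12.45 to 12.67 on EKO arrays and 12.46 to 12.71 on control arrays (14 genes), and their defining members Pecam1 and Cdh5, named after their values were seen, averaged 18.16 and 16.45 on EKO arrays and 18.19 and 16.37 on control arrays. Signal of markers of other cells varied within groups. Adipocyte markers averaged 7.87 to 10.06 on EKO and 8.28 to 10.52 on control arrays (10 of 12 tested), with the brown fat protein gene Ucp1 at 11.14 to 15.78 and 11.96 to 16.73. Neutrophil markers averaged 6.66 to 8.74 on EKO and 6.21 to 7.73 on control arrays (8 of 10 tested), and smooth muscle markers 7.64 to 8.16 and 7.52 to 7.79 (10 of 10 tested). The array's control probe sets marked neg, whose targets are not stated in the labels, had medians of 7.34 to 7.45. On EKO arrays 1 and 3 and control arrays 1 to 3 the neutrophil mean lay below that median. The smooth muscle markers Cnn1 and Myocd read below it on all 8 arrays, while Acta2 and Tagln read above it. All 8 neutrophil markers had a higher mean in EKO aortas, and 8 of the 10 adipocyte markers a lower one. Erythroid markers averaged 10.36 to 10.77 on EKO and 10.55 to 12.18 on control arrays, and both of the 2 tested were lower, each with a limma unadjusted p under 0.05, which 8.93% of all tested genes had. Fibroblast markers averaged 8.36 to 8.85 on EKO and 8.61 to 9.20 on control arrays. Of the 9 tested 8 were lower in EKO aortas, 2 of them with an unadjusted p under 0.05, and the groups did not overlap for 2 of the 9, against 6.08% of all tested genes. Those 2 were Pi16 and Col1a2, and Col1a2 read below the neg median on all 8 arrays. Schwann cell markers averaged 8.47 to 9.008 on EKO and 9.004 to 9.18 on control arrays (3 tested). Means of the macrophage, lymphocyte, platelet and striated muscle lists, EKO minus control, differed by -0.019, 0.23, -0.17 and 0.021, and in all these lists limma gave 0 genes with an adjusted p of 0.05 or less. EKO array 2 stood lowest of all for adipocyte and highest for neutrophil markers. In such bulk samples fewer cells of a type and less RNA per cell cannot be told apart. The targeted gene Mef2c averaged 9.75 ± 0.20 in EKO and 9.77 ± 0.11 in control aortas (SD, n = 4 each), so the groups differed by -0.03 (SE 0.11). Which exons were floxed is not stated in the labels, and a single probe set reads the transcript as a whole, so this value does not check the deletion.

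None of the 9 immediate early genes passed the test between the groups. With limma and Benjamini-Hochberg adjustment over all tested genes, 0 of 9 had an adjusted p of 0.05 or less, and 0% of the 16232 tested genes did. At an unadjusted p under 0.05 limma gave 0 of 9, against 8.93% of all tested genes, and the unmoderated test, which takes each gene's variance by itself, 0 of 9, against 7.51%. EKO and control arrays overlapped for all 9, while they did not overlap for 6.08% of all tested genes. The mean was higher in EKO aortas for 5 genes (Fosb, Dusp1, Atf3, Egr1 and Jun) and lower for 4 (Fosl2, Nr4a1, Ier2 and Fos), and 44.9% of all tested genes had a higher mean there. The median difference of the 9, EKO minus control, was 0.13 on the log2 scale, against -0.019 over all tested genes. Leaving out EKO array 4 gave -0.037, and leaving out control array 3 gave 0.013.

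**Figure D2:**
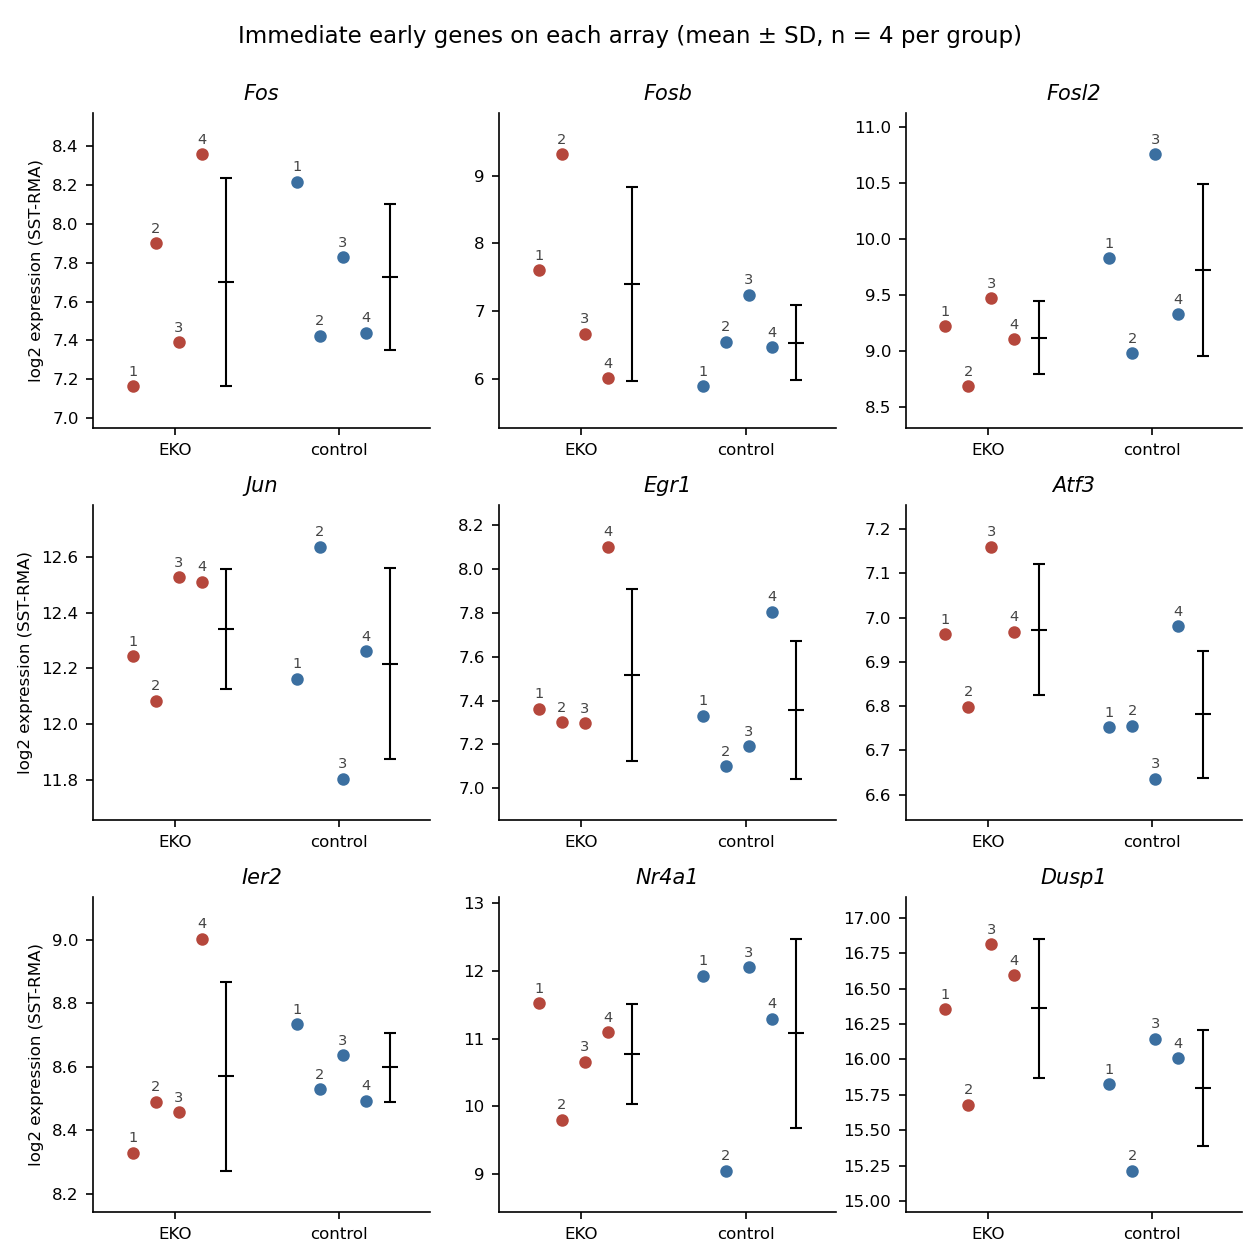
Log2 expression (y axis, SST-RMA values) of the 9 immediate early genes on each array, EKO on the left in red and control on the right in blue, with array numbers beside the points and black marks for mean ± SD (n = 4 per group). EKO and control arrays overlap for every gene, and single arrays lie far from the rest, such as EKO array 2 for Fosb (9.31) and control array 2 for Nr4a1 (9.05).

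Among the FOS proteins, which cannot pair with themselves and need a JUN partner, Fosb had the largest difference of the 9 genes. It read 7.61, 9.31, 6.67 and 6.01 on EKO arrays 1 to 4, against 5.89, 6.55, 7.24 and 6.47 on control arrays 1 to 4. EKO arrays 1 and 2 lay above every control array, and EKO arrays 3 and 4 lay within the control range. The means were 7.40 ± 1.43 and 6.54 ± 0.55 (SD, n = 4 each), a difference of 0.86 (SE 0.65, limma adjusted p = 0.681) with a 95% confidence interval from -0.61 to 2.34. The higher mean in EKO aortas thus rested on EKO array 2, without which the difference was 0.22. That array was also the highest for neutrophil markers (8.74), and with their mean as a covariate the difference was 0.44. On 6 of the 8 arrays Fosb read below the median of the array's control probe sets marked neg (7.34 to 7.45). What those probe sets target is not stated in the labels.

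Fosl2, which encodes the FOS relative FRA2, had the most negative difference. Its values were 9.22, 8.68, 9.47 and 9.10 on EKO arrays 1 to 4, against 9.83, 8.98, 10.75 and 9.33 on control arrays 1 to 4. All 4 EKO arrays lay below the control mean, but only EKO array 2 lay below every control array. The difference was -0.60 (SE 0.36, limma adjusted p = 0.623, 95% interval -1.41 to 0.21, exact permutation p = 0.229), or a 1.52-fold higher mean in control aortas. Without control array 3 it was -0.26. In each group array 3 was highest, followed by arrays 1, 4 and 2. Whether same-numbered arrays belong together is not known, and with the replicate number as a block the limma adjusted p was 0.631.

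Fos, the founding gene of the family, did not separate the groups. EKO arrays 1 to 4 read 7.16, 7.90, 7.39 and 8.36, and control arrays 1 to 4 read 8.22, 7.42, 7.83 and 7.44. The EKO arrays include both the lowest and the highest value. The difference was -0.025 (SE 0.28, limma adjusted p = 0.980, 95% interval -0.66 to 0.61), and its sign turned when single arrays were left out, from -0.24 without EKO array 4 to 0.15 without EKO array 1, and with arrays centred on their medians (0.010). Fos read below the neg median on 3 of the 8 arrays.

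Jun, the main partner of FOS proteins and the gene whose promoter window holds the MEF2 consensus, differed little next to its spread. It read 12.24, 12.08, 12.53 and 12.51 on EKO arrays 1 to 4, against 12.16, 12.64, 11.80 and 12.26 on control arrays 1 to 4. All EKO arrays lay inside the control range. The difference was 0.13 (SE 0.18, limma adjusted p = 0.830, 95% interval -0.28 to 0.53), and it was -0.012 without control array 3. Atf3, a bZIP factor induced by stress whose window also holds the MEF2 consensus, read 6.96, 6.80, 7.16 and 6.97 on EKO arrays 1 to 4. Control arrays 1 to 4 read 6.75, 6.76, 6.64 and 6.98. Here 3 control arrays lay below every EKO array and the fourth, control array 4, lay above 3 of them. The difference of 0.19 (SE 0.10, limma adjusted p = 0.605, 95% interval -0.04 to 0.42, exact permutation p = 0.114) is given without a fold, because Atf3 read below the neg median on all 8 arrays.

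Egr1, a zinc finger factor induced by growth factors and injury of the vessel wall, read 7.36, 7.30, 7.30 and 8.10 on EKO arrays 1 to 4. Control arrays 1 to 4 read 7.33, 7.10, 7.19 and 7.81. In each group array 4 was high and the other 3 were close together, and 6 of the 8 arrays were below the neg median. The difference was 0.16 (SE 0.22, limma adjusted p = 0.821, 95% interval -0.34 to 0.65), and it was -0.037 without EKO array 4. Ier2, which encodes a short-lived nuclear protein, read 8.33, 8.49, 8.46 and 9.003 on EKO arrays 1 to 4, against 8.73, 8.53, 8.64 and 8.49 on control arrays 1 to 4. EKO arrays 1 to 3 lay below every control array and EKO array 4 above all of them. The means therefore differed by only -0.028 (SE 0.14, limma adjusted p = 0.955, 95% interval -0.35 to 0.30), which was -0.17 without EKO array 4, 0.052 without EKO array 1 and 0.0071 with arrays centred on their medians.

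Nr4a1, whose nuclear receptor protein is active without a known ligand and whose window holds 4 CRE cores, was the most variable of the 9 genes within groups. It read 11.53, 9.80, 10.66 and 11.09 on EKO arrays 1 to 4, against 11.93, 9.05, 12.06 and 11.30 on control arrays 1 to 4. Array 2 was lowest in each group, and the 8 arrays spanned 8.03-fold. The difference was -0.31 (SE 0.66, limma adjusted p = 0.888, 95% interval -1.82 to 1.20). Leaving out control array 2 gave -0.99 and leaving out control array 3 gave 0.013, and with adipocyte markers as a covariate it was 0.075.

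Dusp1, the phosphatase that switches MAP kinases off and so ends the signal that induced it, had the smallest limma p of the 9 genes (the smallest exact permutation p, 0.114, was that of Atf3). Its values were 16.36, 15.68, 16.81 and 16.59 on EKO arrays 1 to 4, against 15.82, 15.22, 16.15 and 16.01 on control arrays 1 to 4. EKO arrays 1, 3 and 4 lay above every control array, and EKO array 2 lay among them. The means were 16.36 ± 0.49 and 15.80 ± 0.41 (SD, n = 4 each). The difference of 0.56 (SE 0.27, limma adjusted p = 0.585, exact permutation p = 0.143), 1.48-fold, had a 95% confidence interval from -0.06 to 1.19. With single arrays left out it ran from 0.37 (without control array 2) to 0.79 (without EKO array 2). Array 3 was highest in each group, followed by arrays 4, 1 and 2. Whether same-numbered arrays belong together is not known, and with the replicate number as a block the limma adjusted p was 0.59. The smallest p that the two-sided exact permutation test over 70 assignments of the arrays can give is 0.0286.

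**Figure D3:**
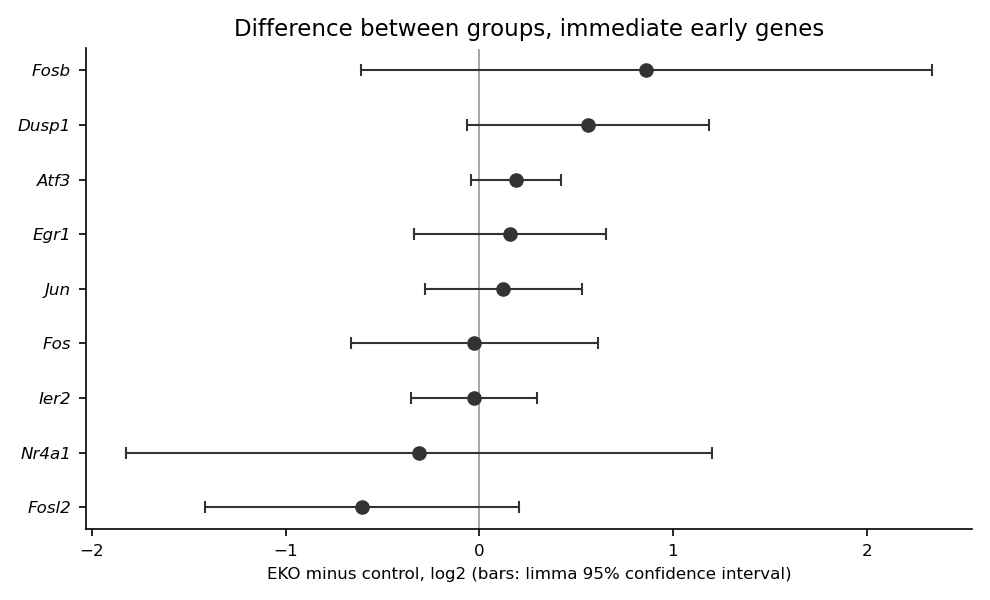
Difference between the groups for each of the 9 immediate early genes, EKO minus control on the log2 scale (x axis), with limma's 95% confidence interval as bars (n = 4 per group). Every interval includes 0, and they are widest for Nr4a1 (-1.82 to 1.20) and Fosb (-0.61 to 2.34).

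These genes varied more between aortas of a group than most genes did. The pooled SD within groups was 1.12 for Nr4a1, 1.09 for Fosb, 0.59 for Fosl2, 0.46 for Fos and 0.45 for Dusp1. For each of these 5 genes over 90% of all tested genes had a smaller SD, and for Nr4a1 and Fosb 99.6% had. The median SD was 0.45 over the 9 genes and 0.15 over all tested genes. Atf3, at 0.15, was the exception, with 46.6% of tested genes below it. This is a description of these arrays. The width of a gene's interval also depends on its SD, which limma moderates with the spread of all tested genes.

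**Figure D4:**
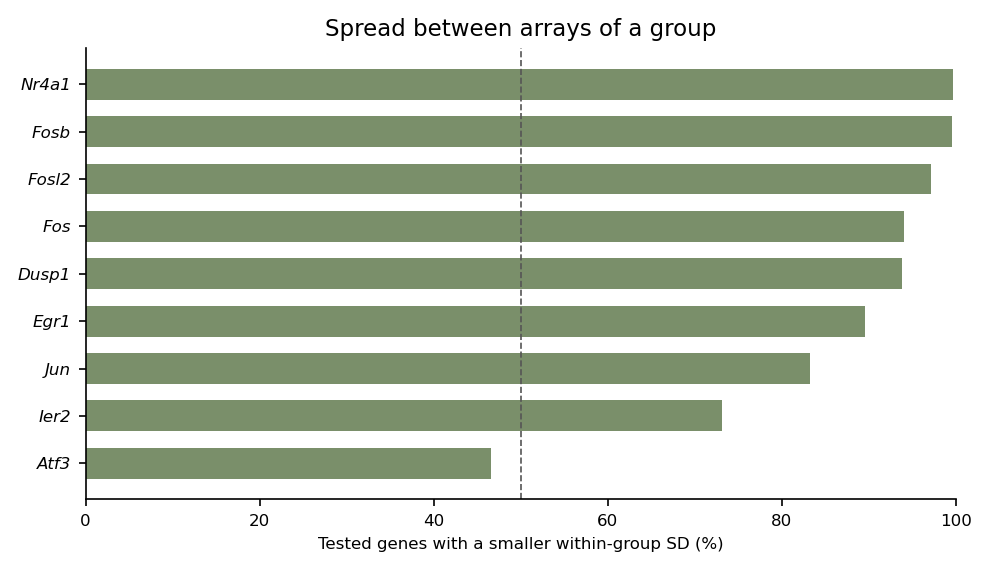
Share of the 16232 tested genes, in percent (x axis), whose SD within groups was smaller than that of the immediate early gene named on the y axis. The dashed line marks 50%. The bars of Nr4a1, Fosb, Fosl2, Fos and Dusp1 pass 90%, and that of Atf3 ends at 46.6%.

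The genes did not vary as a block from array to array. Of 36 pairs, 20 had a positive and 16 a negative Pearson r over the 8 arrays, with a median of 0.072. Different genes peaked on different aortas: Fos, Egr1 and Ier2 on EKO array 4, Atf3 and Dusp1 on EKO array 3, Fosb on EKO array 2, Fosl2 and Nr4a1 on control array 3, and Jun on control array 2. Control array 2 was at the same time lowest for Egr1, Nr4a1 and Dusp1.

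Fos and Ier2 were the pair that varied together most closely. Pearson r was 0.893 (exact permutation p = 0.00074 over 40320 orderings, 0.0268 after Benjamini-Hochberg adjustment over the 36 pairs), and r was 0.893 as well after each group was centred on its mean. Spearman rho was 0.833 (exact permutation p = 0.0154, adjusted 0.392), so the ranks alone did not pass. With the 2 arrays farthest from the Fos median left out, r came to 0.727. Fos was below the neg median on 3 of these arrays. EKO array 4 and control array 1 were the 2 highest for both genes, and EKO array 1 was lowest for both. Fosl2 and Nr4a1 had r = 0.718 and rho = 0.810 (exact permutation p = 0.0439 and 0.0218, adjusted 0.693 and 0.392), which did not pass. Both were highest on control array 3 and next highest on control array 1, and r stood at 0.665 with the 2 arrays farthest from the Fosl2 median left out.

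Of the relations with cell type markers only that of Ier2 with smooth muscle passed adjustment, and by rank alone. Each of the 9 genes was set against the mean of endothelial, smooth muscle, adipocyte and neutrophil markers, 36 relations in all. Ier2 was lower on arrays with more smooth muscle signal, with rho = -0.952 (exact permutation p = 0.00114, adjusted 0.0411) but r = -0.773 (exact permutation p = 0.0339, adjusted 0.407), and r = -0.957 without the 2 arrays farthest from the marker median. Fos had r = -0.788 and rho = -0.714 with the same markers (exact permutation p = 0.0102 and 0.0576, adjusted 0.369 and 0.416), and r = -0.683 without the 2 farthest arrays. Nr4a1 and adipocyte markers had r = 0.776 and rho = 0.810 (exact permutation p = 0.0226 and 0.0218, adjusted 0.407 and 0.261), which did not pass, and r = 0.639 without the 2 farthest arrays. Fosb and neutrophil markers had r = 0.637 and rho = 0.286 (exact permutation p = 0.0998 and 0.501, adjusted 0.533 and 0.819), and r = -0.134 without the 2 farthest arrays, so the relation rests on those. With smooth muscle markers Fosb had r = 0.563 and rho = 0.810 (exact permutation p = 0.169 and 0.0218, adjusted 0.583 and 0.261). That r was 0.655 without the 2 farthest arrays. Endothelial markers had their largest r with Nr4a1 (0.609, exact permutation p = 0.104, adjusted 0.533) and Fosb (-0.608, exact permutation p = 0.101, adjusted 0.533). Next came Ier2 (r = 0.590) and Fos (r = 0.549), which turned to -0.662 and -0.719 without the 2 farthest arrays. By Pearson's r no relation with a marker list passed adjustment (smallest adjusted p = 0.369). The part that other cells have in the values of these genes was not tested.

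**Figure D5:**
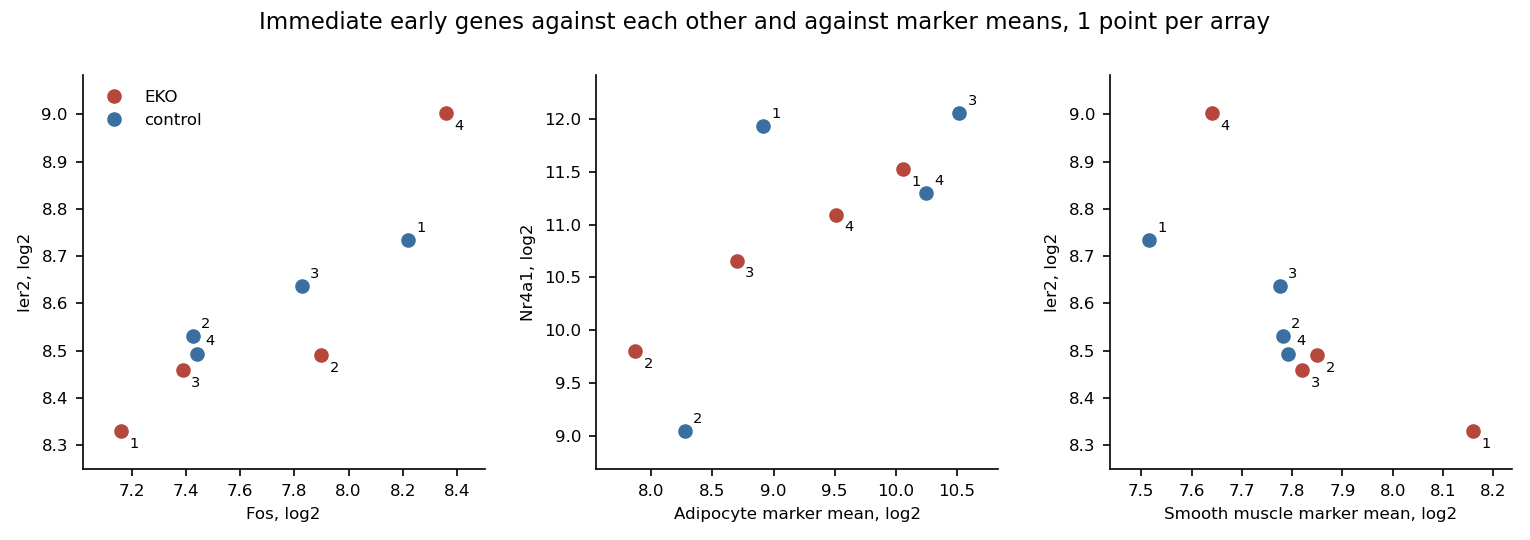
Log2 values of 1 immediate early gene (y axis) against another or against the mean of a marker list (x axis, log2), 1 point per array with its number, EKO in red and control in blue. From left to right the panels show Ier2 against Fos (r = 0.893), Nr4a1 against adipocyte markers (r = 0.776) and Ier2 against smooth muscle markers (rho = -0.952), and both groups lie along each trend.

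The genes whose pattern over the 8 arrays was most like the mean of the 9 were P2ry2 (r = 0.952), Nab2 (0.947), Tut7 (0.946), Fbxw7 (0.917), Stau2 (0.913) and Nmd3 (0.912), out of 10920 named genes. These r are the measure by which they were picked and carry no test. P2ry2, a receptor for extracellular nucleotides, read 11.52, 11.52, 11.36 and 11.77 on EKO arrays 1 to 4, against 11.34, 10.66, 11.65 and 11.40 on control arrays 1 to 4. Control array 2, which had the lowest mean over the 9 genes (9.14, against 9.56 to 9.75 on EKO arrays and 9.56 to 9.81 on the other control arrays), was also the lowest for all 6. Picking the 6 by their r to that mean favours this, so it adds no evidence of its own. On control array 2 Nr4a1, the most variable of the 9, was at its lowest (9.05) and Jun at its highest (12.64). The mean therefore does not stand for each gene.

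Other immediate early transcripts did not pass either. Of 46 further genes of this kind 37 were tested, 22 with a higher and 15 with a lower mean in EKO aortas. By limma 0 passed, 0 had an unadjusted p under 0.05, and the median difference was 0.035. Mcl1, an inhibitor of apoptosis, differed by 0.20 (SE 0.09), the growth arrest gene Gadd45b by 0.48 (SE 0.23), the Nr4a1 relative Nr4a2 by -0.43 (SE 0.25) and Zfp36, whose protein speeds the decay of these short-lived messages, by 0.29 (SE 0.20). Their limma adjusted p ran from 0.558 to 0.655. Mcl1 read 11.48, 11.33, 11.57 and 11.39 on EKO arrays 1 to 4, against 11.29, 11.07, 11.37 and 11.26 on control arrays 1 to 4, so the groups overlapped only through control array 3.

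Upstream of these genes, 20 of 24 kinases, serum response factor cofactors and CREB relatives were tested, 5 with a higher and 15 with a lower mean in EKO aortas (55.1% of all tested genes were lower). None passed, 1 had a limma unadjusted p under 0.05 (8.93% of all tested genes had), and the median difference was -0.098. That gene was Map2k1, a kinase that activates ERK. It read 9.94, 9.75, 9.65 and 9.73 on EKO arrays 1 to 4, against 10.03, 9.96, 10.18 and 9.93 on control arrays 1 to 4. The difference was -0.26 (SE 0.09, limma adjusted p = 0.527), and EKO array 1 was the single EKO array inside the control range. Elk1, a cofactor of serum response factor, differed by -0.17, Creb1, which binds the CRE, by -0.12 and the p38 kinase activator Map2k3 by -0.22.

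Partners and brakes of AP-1 had 0 genes past the threshold. Of 16 further bZIP partners 11 were tested, 6 higher and 5 lower (median 0.0036), with the amino acid stress factor Atf4 at -0.21, Batf2 at 0.22, Maf at -0.18 and Jdp2 at -0.096. All 20 genes that dampen the response had a probe set and 15 were tested, 7 higher and 8 lower (median -0.014). Zfp36 was again among them at 0.29, beside Spry2, an inhibitor of receptor kinase signalling, at -0.28, the MAP kinase phosphatase Dusp10 at -0.18 and Tob1 at -0.13. In both lists 0 genes had an unadjusted p under 0.05 by limma.

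Reported targets of these factors in the vessel wall were measured too. Of 20 genes with reported AP-1 or EGR1 sites 10 were tested, 6 higher and 4 lower (median 0.061, 0 passed). A limma unadjusted p under 0.05 was found for 1 of the 10, against 8.93% of all tested genes. Plaur, the urokinase receptor, was that gene. It read 10.52, 10.09, 10.27 and 9.77 on EKO arrays 1 to 4, against 9.82, 9.47, 9.82 and 9.71 on control arrays 1 to 4, a difference of 0.46 (SE 0.16, limma adjusted p = 0.528, exact permutation p = 0.0857). EKO array 4 was the single EKO array inside the control range. The prostaglandin synthase Ptgs2 differed by 0.58 (SE 0.44) and like Fosb was highest on EKO array 2 (9.90). The adhesion molecule Icam1 differed by 0.14 and the growth factor gene Pdgfb by 0.098.

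Heat shock genes, which handling of tissue can raise, did not pass: 10 of 12 were tested, 4 higher and 6 lower (median -0.033, 0 passed). A limma unadjusted p under 0.05 was found for 1 of the 10, against 8.93% of all tested genes. This 1 was the small heat shock protein gene Hspb1 at 0.19 (SE 0.08, limma adjusted p = 0.558), beside Hspa5 at -0.22, Hspa8 at -0.12 and Bag3 at -0.076. Of 8 MEF2 proteins and class IIa histone deacetylases 6 were tested, 2 higher and 4 lower (median -0.063, 0 passed and 0 with an unadjusted p under 0.05). Hdac9, a deacetylase that binds and represses MEF2 proteins, differed by -0.58 (SE 0.28, limma adjusted p = 0.585), Hdac7 by -0.15, Mef2d by -0.099 and Mef2a by 0.049.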

How the data were processed

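RNA of 8 single aortas was measured on 8 arrays. The authors deposited log2 expression per probe set, which per the labels came from Expression Console by SST-RMA. This method corrects background and quantile-normalizes, so overall signal differences between arrays were removed. The sources used here give neither a software version nor a genome build for the array values. The number of arrays limits precision.

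Platform symbols (repeats within a probe set counted once) were updated through the RefSeq table of GRCm38.p6. Of 72688 probe sets 30604 had 1 symbol and 2146 several. For 429 symbols with several probe sets the one with the highest mean stood for the gene. A gene was tested if its mean over the 8 arrays exceeded 6.14, the median over all probe sets, which 16232 did. The test was limma 3.58.1 in R 4.3.3 (lmFit, eBayes, no covariates, adjusted p threshold 0.05). Labels say each sample was a single aorta, so arrays are separate animals. Array numbers were not used to pair the groups in this test. Deviations of same-numbered arrays correlated at -0.16, 0.21, -0.24 and 0.13 for numbers 1 to 4, so not every pair was above 0.1. So few values cannot settle whether same-numbered arrays belong together. On simulated data for this comparison (16232 genes, 200 changed) limma recovered 84% of changes of 1 and 97% of changes of 2 log2 units, and 3.21% of its calls were unchanged genes. The noise was drawn independently for each gene, and the changed genes were drawn at random from all tested genes. The median SD within groups was 0.15 over all tested genes and 0.45 over the 9 members, so these shares do not apply to the members.

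Members and lists were chosen with earlier results of these data known. Named are all members, Mef2c, up to 4 genes of each list with the smallest p, the 6 genes most correlated with the members' mean, Ucp1 and S100a8 among the markers. S100a8 averaged 8.76 on EKO and 7.62 on control arrays. Alternatives covered the level filter, probe set choice, scaling, variance model, covariates, block and leaving out arrays.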

Additional observations from a re-analysis of the deposited data

Results flagged for a closer look

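Egr1 on EKO array 4 read 8.10, far from the other 3 EKO arrays, which lay between 7.30 and 7.36: the gap took up 0.917 of the group's range, above the limit of 0.829 for 4 arrays. The 9 genes in 2 groups make 18 such checks, and chance passes about 1 in 20. Without EKO array 4 the difference of Egr1 was -0.037 in place of 0.16.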

How the results depend on the processing

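None of the 9 genes, and none of all tested genes, passed an adjusted p of 0.05 by limma or the unmoderated test in any of the 19 alternatives (smallest adjusted p 0.486 for the 9 and 0.169 for all genes). Unadjusted p-values under 0.05 numbered 1449 of all genes with limma and 1219 with the unmoderated test. Each replicate number occurs once per group, so using it as a block cannot change the differences (Fosb 0.86, Dusp1 0.56, median of the 9 genes 0.13). The block changes only their errors, and it made no call. With only genes above the 75th percentile of level kept, 5 of the 9 genes stayed, 2 of them higher, with a median of -0.028; fewer genes enter that median. The adipocyte covariate turned Nr4a1 to 0.075, centring arrays turned Fos to 0.010 and Ier2 to 0.0071, and quantile normalization turned Ier2 to 0.0087. Centring moves the median of all tested genes by 0.035. With single arrays left out, 4 to 7 genes were higher and their median ran from -0.037 to 0.21; Fos ran from -0.24 to 0.15, Fosb from 0.22 to 1.33, Fosl2 from -0.85 to -0.26, Jun from -0.012 to 0.27, Egr1 from -0.037 to 0.31, Atf3 from 0.13 to 0.26, Ier2 from -0.17 to 0.052, Nr4a1 from -0.99 to 0.013 and Dusp1 from 0.37 to 0.79. The block, the robust variance trend, the unmoderated test, the level filters and the mean of probe sets leave a member's difference unchanged by construction. In every other alternative Fosb, Dusp1, Atf3 and Fosl2 kept their sign. The cause of the shifts given above was not tested.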

Other observations

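Relatives of the 9 genes, named here after their values were seen, differed in how far they followed them. Egr3, like Egr1, was highest on EKO array 4 and lowest on control array 2. It read 7.38, 7.52, 7.54 and 8.07 on EKO arrays 1 to 4, against 7.68, 7.07, 7.81 and 7.50 on control arrays 1 to 4, a difference of 0.11 (SE 0.19, limma adjusted p = 0.861). Nr4a2, like Nr4a1 and Fosl2, was highest on control array 3. It read 8.66, 8.72, 8.35 and 8.39 on EKO arrays 1 to 4, against 9.16, 8.35, 9.63 and 8.72 on control arrays 1 to 4. Egr2 differed by -0.073 and Jund by 0.078. Fosl1 averaged 5.48 on EKO and 5.46 on control arrays, Nr4a3 5.62 and 5.60, and Ier5 5.56 and 5.32, all below the level filter of 6.14.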
